A study of Mus musculus with 6 samples.

Results

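Apolipoproteins and the triglyceride transfer protein Mttp were followed in livers of male Balb/cBy and Balb/c mice. The set comprised 10 genes of the 22180 tested: Apoa1, Apoa2, Apoa4, Apoa5, Apob, Apoc1, Apoc2, Apoc3, Apoe and Mttp. They were chosen by name as the apolipoproteins of high-density lipoprotein (HDL), very low-density lipoprotein (VLDL) and remnants together with the protein that loads lipid onto Apob. The choice was made with earlier results of these data known. All 10 were measured, each by 1 probe set annotated to that gene alone. Liver RNA of each mouse was hybridised to an Affymetrix one-colour array, with 3 arrays for Balb/c and 3 for Balb/cBy, which the labels call biological replicates. Every mouse was male and caged singly, ate a high-fat diet (fat giving 58% of energy) for 12 weeks starting at 8 weeks of age, and was 20 weeks old at sampling. The pair are substrains of 1 albino inbred line, and Balb/cBy is known to carry a deletion in Acads, a mitochondrial short-chain acyl-CoA dehydrogenase. The supplier of the mice is not given in the sources used here. Mice on other diets were not analysed here, and the values compare substrains under fat feeding and cannot show a response to fat.

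The liver packs triglyceride and cholesterol ester around Apob to form each VLDL particle, and Mttp transfers the lipid onto it in the endoplasmic reticulum. Small exchangeable apolipoproteins then join and leave particles in plasma, where they steer lipoprotein lipase (Apoc2 activates it, Apoc3 restrains clearance, Apoa5 promotes it) and uptake of remnants (Apoe is the ligand, Apoc1 interferes with it). Apoa1 and Apoa2 are the main proteins of HDL, and Apoa4 is made by intestine and, in mice, by liver, where it is known to follow hepatic fat.

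Of the 10 genes, Apoa4 and Apoc2 had every Balb/cBy array above every Balb/c array, and the other 8 overlapped between the substrains. Apoa4 was 1.63-fold and Apoc2 1.27-fold higher in Balb/cBy, while the log2 differences of the other 8 lay between -0.04 and 0.08. None of the 10 passed an adjusted p of 0.05 in limma, and neither did any of the 22180 genes (0%), of which 833 (3.76%) had an unadjusted p under 0.05. A test without limma's moderation also called 0 genes. Groups that did not overlap in either direction were found for 7.83% of all genes, and with Balb/cBy higher for 4.32%, against 2 of these 10. The median difference of the 10 genes was 0.02, and that of all genes was -0.003. Among the 11090 genes above the median level, which include all 10, it was also 0.02. Leaving out single arrays moved the median of the 10 from -0.01 (Balb/c replicate 2 left out) to 0.07 (Balb/cBy replicate 1 left out), and it was -0.01 with repeated quantile normalisation.

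The sequence just upstream of the start of these genes is shown for the 2 whose groups did not overlap and for a neighbour of each on the same chromosome whose groups did. Apoa4 lies on chromosome 9 in the run Apoa1, Apoc3, Apoa4, Apoa5, and Apoc2 on chromosome 7 in the run Apoc2, Apoc4, Apoc1, Apoe, in the RefSeq gene order of GRCm38.p6. RefSeq promoter windows of that build were found by symbol for 8 of the 10 genes, all but Apoc1 and Apoc3. The 250 bases before the start are printed 5′ to 3′ on the strand of the gene. Capitals mark matches on either strand to 3 motifs: CAAAGTNCA, a form of the element bound by the liver factor HNF4, AGGTCA, the half-site of nuclear receptors, and TATAAA, the TATA box.
Apoa4 (GRCm38.p6, chr9:46240594-46240843, + strand): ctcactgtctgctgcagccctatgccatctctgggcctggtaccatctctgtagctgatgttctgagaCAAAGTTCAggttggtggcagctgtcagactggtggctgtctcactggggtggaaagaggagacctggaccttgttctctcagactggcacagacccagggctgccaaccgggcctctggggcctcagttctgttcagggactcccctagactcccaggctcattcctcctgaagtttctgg
Apoa1 (GRCm38.p6, chr9:46228380-46228629, + strand): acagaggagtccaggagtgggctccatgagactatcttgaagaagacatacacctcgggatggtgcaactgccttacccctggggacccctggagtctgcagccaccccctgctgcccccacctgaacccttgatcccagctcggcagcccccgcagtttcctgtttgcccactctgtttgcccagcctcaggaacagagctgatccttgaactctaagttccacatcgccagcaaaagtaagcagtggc
Apoc2 (GRCm38.p6, chr7:19677942-19678191, - strand): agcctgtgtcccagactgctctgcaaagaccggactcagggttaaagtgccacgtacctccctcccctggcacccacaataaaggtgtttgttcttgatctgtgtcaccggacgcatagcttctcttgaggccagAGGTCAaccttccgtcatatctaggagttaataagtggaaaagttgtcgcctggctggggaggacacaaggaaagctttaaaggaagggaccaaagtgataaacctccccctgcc
Apoe (GRCm38.p6, chr7:19699189-19699438, - strand, the first of 3 starts): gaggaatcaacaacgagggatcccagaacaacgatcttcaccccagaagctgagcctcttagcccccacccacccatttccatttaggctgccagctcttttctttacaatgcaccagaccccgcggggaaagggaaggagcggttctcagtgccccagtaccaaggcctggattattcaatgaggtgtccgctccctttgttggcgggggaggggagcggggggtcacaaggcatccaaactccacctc

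CAAAGTNCA was present in the window of Apoa4, beginning 182 bases before the start, and in no other window of the 8 genes. It was present in 1.19% of the 32851 promoter windows in the table. AGGTCA was present in the window of Apoc2, beginning 115 bases before the start, and in 1 of the windows of Apoa2, that is in 2 of the 12 windows of these genes, against 14.0% of all windows. TATAAA was present in 5 of the 12 windows, against 12.4% of all windows, for Apoa2, Apoa5, Apob and Apoe, but not in the first window of Apoe printed here. The matches began 212 bases before the start for Apoa2, 60 for Apob, and 100 and 96 for Apoe. For Apoa5 they began 31 and 56 bases before its 2 starts and are the same genomic site, counted in both windows. Genes with several starts hold several windows, and some of these overlap. No match to one motif overlapped a match to another. A match describes these letters, taken from the reference strain, and not a bound site. The substrains' own sequences were not examined here.

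Apoa4, an exchangeable apolipoprotein of triglyceride-rich particles and HDL, had the largest difference of the 10. Its log2 RMA values (background-corrected, quantile-normalised and summarised per probe set) were 12.69, 12.50 and 12.55 in Balb/c and 13.30, 13.11 and 13.44 in Balb/cBy, in the order of replicates 1 to 3. The lowest Balb/cBy array, replicate 2, lay above the highest Balb/c array, replicate 1. Group means were 12.58 ± 0.10 for Balb/c and 13.28 ± 0.16 for Balb/cBy (SD, n = 3 each). The log2 difference was 0.70 (SE 0.11, 95% interval 0.44 to 0.96). In limma the adjusted p over all genes was 0.279, and the two-sided exact permutation p was 0.1, the smallest that 3 arrays against 3 can give. Of the 22180 genes, 88 had a larger difference in size, and Apoa4 ranked 19 by limma's p. Without each array in turn the difference lay between 0.62 and 0.79.

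Apoc2, the cofactor that lipoprotein lipase needs, stood at 11.62, 11.50 and 11.63 in Balb/c and 11.89, 11.97 and 11.92 in Balb/cBy. The 3 Balb/cBy arrays were close together and all above the Balb/c arrays. Group means were 11.58 ± 0.075 for Balb/c and 11.93 ± 0.040 for Balb/cBy (SD, n = 3 each). The log2 difference was 0.34 (SE 0.089, 95% interval 0.14 to 0.55), with an adjusted p of 0.999 in limma and an exact permutation p of 0.1. A difference of larger size was seen in 829 of the 22180 genes. A further probe set is annotated to Apoc4 and Apoc2 together and so could not be assigned to either. It read 13.19, 13.17 and 13.03 in Balb/c and 13.18, 13.37 and 13.37 in Balb/cBy, so that its groups overlapped. Its difference was 0.18 (SE 0.10, adjusted p = 0.999 in limma), smaller than that of the Apoc2 probe set.

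**Figure D1:**
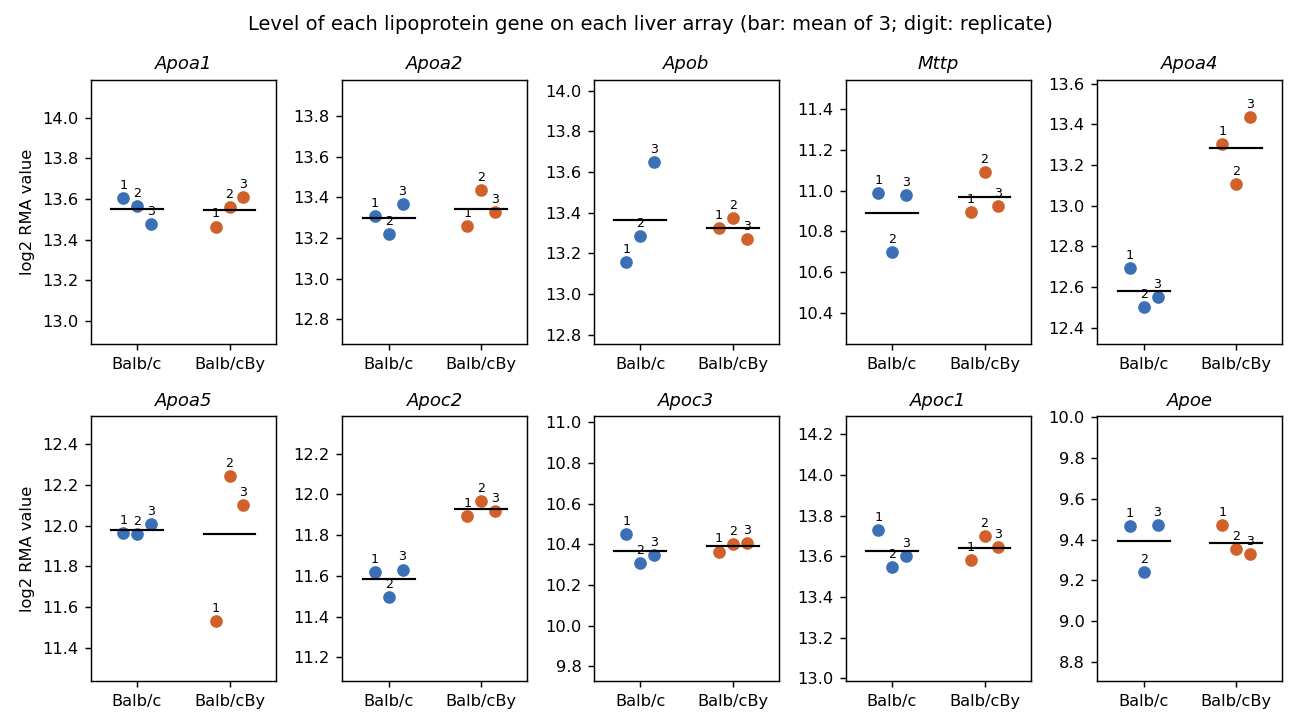
Log2 RMA value (vertical axis, spanning 1.3 units in each panel around the gene's own range) of each of the 10 genes on the 3 Balb/c arrays (blue) and the 3 Balb/cBy arrays (orange), with the replicate number above each point and a bar at the group mean. The groups are apart for Apoa4 and Apoc2 and overlap in the other 8 panels, with Apoa5 of Balb/cBy replicate 1 (11.53) and Apob of Balb/c replicate 3 (13.65) away from their groups.

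The other regulators of lipase action overlapped between the substrains. Apoa5, which promotes triglyceride clearance, read 11.96, 11.96 and 12.01 in Balb/c and 11.53, 12.24 and 12.10 in Balb/cBy. Its SD over 3 arrays was 0.028 for Balb/c and 0.38 for Balb/cBy, with Balb/cBy replicate 1 the lowest array and the other Balb/cBy arrays above all of Balb/c. The difference was -0.02 (SE 0.17, 95% interval -0.42 to 0.38), and without Balb/cBy replicate 1 it was 0.19 (adjusted p = 0.622 in limma). That array also had the lowest estimated quality weight, 0.467. Apoc3, which slows lipolysis and remnant uptake, read 10.45, 10.31 and 10.35 in Balb/c and 10.37, 10.40 and 10.40 in Balb/cBy. Its difference was 0.02 (SE 0.088, 95% interval -0.18 to 0.22).

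The remnant apolipoproteins overlapped between the substrains as well. Apoe, the ligand of the receptors that clear remnants, read 9.47, 9.24 and 9.47 in Balb/c and 9.47, 9.35 and 9.33 in Balb/cBy, a difference of -0.008 (SE 0.10, 95% interval -0.24 to 0.23). Apoc1, which hinders that clearance, read 13.73, 13.55 and 13.60 in Balb/c and 13.58, 13.70 and 13.64 in Balb/cBy, a difference of 0.02 (SE 0.094, 95% interval -0.20 to 0.23). Kupffer cells and other macrophages also make Apoe and its neighbours. Of 17 macrophage markers 12 had a higher mean in Balb/cBy (median difference 0.12, range -0.37 to 0.43, none past the test). The groups of 2 were apart with Balb/cBy higher, beside 4.32% of all genes: Gpnmb by 0.36 (SE 0.099) and Mpeg1 by 0.35 (SE 0.12), named after their values were seen. Gpnmb had means of 7.52 for Balb/c and 7.89 for Balb/cBy, near the array medians over all probe sets (7.66 to 7.74). The mean level of the 17 markers ran from 9.21 to 9.84 over the Balb/c arrays and from 9.49 to 9.83 over the Balb/cBy arrays. Clec4f, the defining Kupffer cell marker, had means of 10.31 ± 0.38 for Balb/c and 10.44 ± 0.24 for Balb/cBy (SD, n = 3 each). Adgre1 had means of 9.70 ± 0.59 for Balb/c and 9.33 ± 0.36 for Balb/cBy (SD, n = 3 each). In these bulk samples fewer cells of a type and less RNA per cell cannot be told apart, and the part of macrophages in the Apoe, Apoc1 or Apoc2 values was not tested.

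The HDL proteins had nearly equal means in both substrains. Apoa1, which activates lecithin-cholesterol acyltransferase and takes up cellular cholesterol, read 13.61, 13.57 and 13.48 in Balb/c and 13.46, 13.56 and 13.61 in Balb/cBy. Its difference was -0.005 (SE 0.092, 95% interval -0.21 to 0.21), or a fold between 0.862 and 1.15. Apoa2, the second HDL protein, read 13.31, 13.22 and 13.37 in Balb/c and 13.26, 13.44 and 13.33 in Balb/cBy. It differed by 0.04 (SE 0.095, 95% interval -0.17 to 0.26). For both genes the arrays of the groups overlapped, and no array lay over 0.22 from another.

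For VLDL assembly, Apob, the structural protein of the particle, read 13.16, 13.29 and 13.65 in Balb/c and 13.33, 13.38 and 13.27 in Balb/cBy. The highest and the lowest array were both Balb/c, replicates 3 and 1, and the Balb/cBy arrays lay between them. The difference was -0.04 (SE 0.13, 95% interval -0.35 to 0.27), and 0.10 without Balb/c replicate 3 (adjusted p = 0.989 in limma). Mttp, which lipidates Apob, read 10.99, 10.70 and 10.98 in Balb/c and 10.89, 11.09 and 10.93 in Balb/cBy. Its groups overlapped, with Balb/c replicate 2 the lowest array. The difference was 0.08 (SE 0.11, 95% interval -0.18 to 0.34). Each of the 8 genes whose groups overlapped had an interval that held 0, of which that of Apoa5 was the widest, and limma's adjusted p was 0.999 for each.

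**Figure D2:**
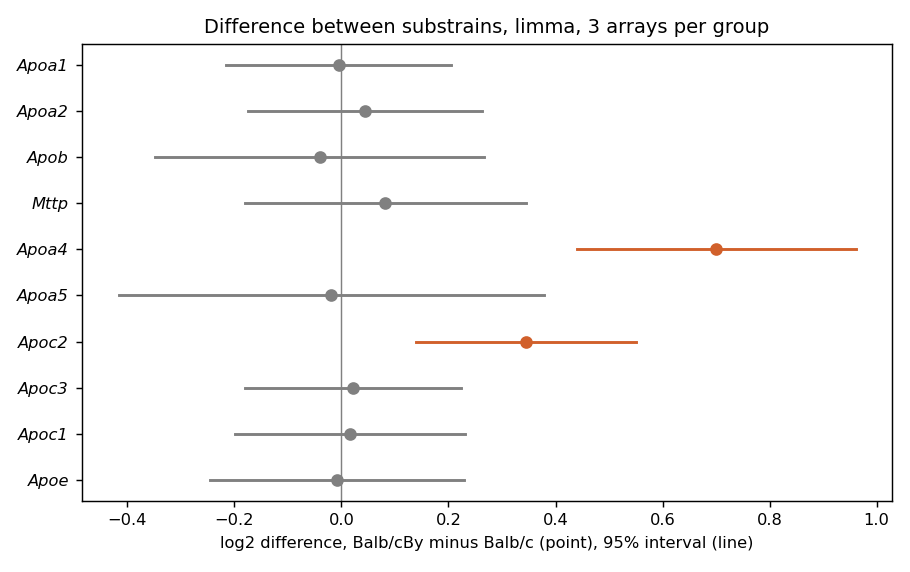
Log2 difference, Balb/cBy minus Balb/c (horizontal axis), of the 10 genes from limma, with the point estimate and its 95% interval, 3 arrays per group. Orange marks Apoa4 (0.70) and Apoc2 (0.34), the genes whose groups did not overlap, and grey the other 8, whose intervals all include 0. The intervals are not adjusted for the number of genes.

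Some arrays were high or low for many of the 10 genes. Balb/c replicate 2 held the lowest value of 7 of the 10 genes and was above a gene's mean over the 6 arrays for 1 of 10. Balb/cBy replicate 2 was above that mean for 9 of 10 and held the highest value of 4. These arrays had ordinary medians over all probe sets (7.73 and 7.67, with the 6 arrays between 7.66 and 7.74), and Balb/c replicate 3 and Balb/cBy replicate 1 had the lowest quality weights (0.631 and 0.467). Correlations between arrays over all 41345 probe sets were between 0.972 and 0.988.

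To set aside shifts common to an array, Apoa4 and Apoc2 were also set against the other genes of their clusters within each array. The log2 distance from Apoa1 to Apoa4 on the same array was -0.911, -1.06 and -0.928 in Balb/c and -0.161, -0.454 and -0.173 in Balb/cBy. This distance moved by 0.71 between the substrains, without overlap. Measured from Apoc3 the shift of Apoa4 was 0.68, and from Apoa5 it was 0.72, again without overlap. The distance from Apoc1 to Apoc2 moved by 0.33 and that from Apoe to Apoc2 by 0.35, and in both the groups did not overlap. These comparisons were made after the values of Apoa4 and Apoc2 were known and are given as a description with no test. Since the other genes of the clusters differed by only -0.02 to 0.02, these shifts largely restate the differences of Apoa4 and Apoc2. They cannot tell which of a pair differed.

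Genes next to the clusters overlapped between the groups. On chromosome 9, Sik3, which precedes Apoa1, differed by 0.11 (SE 0.15) and Zpr1, which follows Apoa5, by 0.14 (SE 0.14). On chromosome 7, Clptm1, before Apoc2, differed by 0.20 (SE 0.12) and Tomm40, after Apoe, by 0.12 (SE 0.17). Adjusted p was 0.999 for each of these neighbours in limma. The genes of the chromosome 9 cluster are known to share an enhancer near Apoc3, as background to their being shown together.

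**Figure D3:**
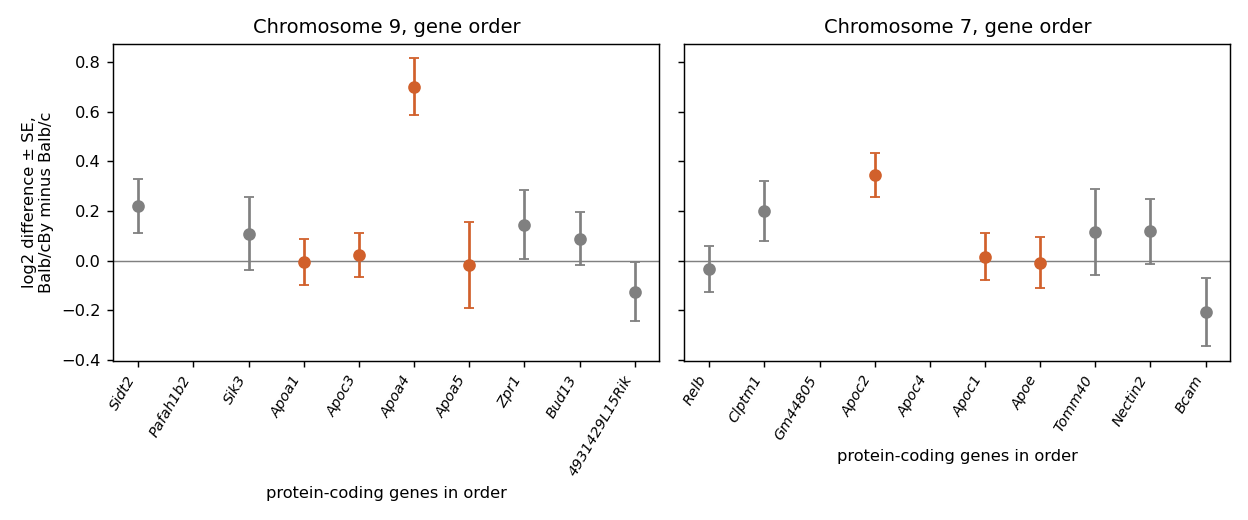
Log2 difference, Balb/cBy minus Balb/c, with its SE (vertical axis) of the protein-coding genes in chromosomal order around the Apoa1 to Apoa5 cluster of chromosome 9 and the Apoc2 to Apoe cluster of chromosome 7 (horizontal axis, order and not distance). Orange marks the lipoprotein genes of the set and grey their neighbours, and a place with no point is a gene without a probe set of its own. Apoa4 at 0.70 and Apoc2 at 0.34 stand apart from the other genes of their clusters, which lie between -0.02 and 0.02.

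Several of these genes sat near the top of the array's scale. Apoa1, Apoa2, Apob and Apoc1 had means of 13 or more, as 86 of the 22180 genes did, and Apoa4 reached that level in Balb/cBy. The highest probe set of each array read between 14.63 and 14.84, and Apoc1 lay 0.958 to 1.15 below it and Apoa1 1.06 to 1.28. Among the 86 genes the median SD within a group was 0.096 and the median size of the difference 0.060. Among the 490 genes with means from 11 to 12, where Apoa5 and Apoc2 lie, these were 0.19 and 0.14, the latter the largest of the level ranges. They were 0.15 and 0.083 for means from 8 to 10, and 0.13 and 0.070 below 8. A difference over 0.5 in size was seen for 1 of the 86 genes (1.16%), for 5 of the 203 with means from 12 to 13, where Apoa4 lies, and for 22 of the 490 (4.49%). The share was 2.46% from 12 to 13, 3.84% from 10 to 11, 1.28% from 8 to 10 and 0.593% below 8. That of the 86 genes rests on 1 gene. The 95th percentile of the size of the difference was 0.21 for the 86 genes, the lowest of the level ranges. It was 0.26 below 8, 0.32 from 8 to 10 and 0.46 from 11 to 12. Whether bright probes were saturated cannot be read from summarised values and was not tested. The near-equal values of Apoa1, Apoa2, Apob and Apoc1 and the size for Apoa4 carry this limit. Levels also depend on the probes: Apoe, an abundant liver transcript by textbook accounts, read 9.39 here, at the 85.0th percentile of genes, Apoc3 was at the 93.7th and Mttp at the 96.3rd, and the other 7 were at the 98.3rd or above. This order is one of probe set signals and not of RNA amounts.

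**Figure D4:**
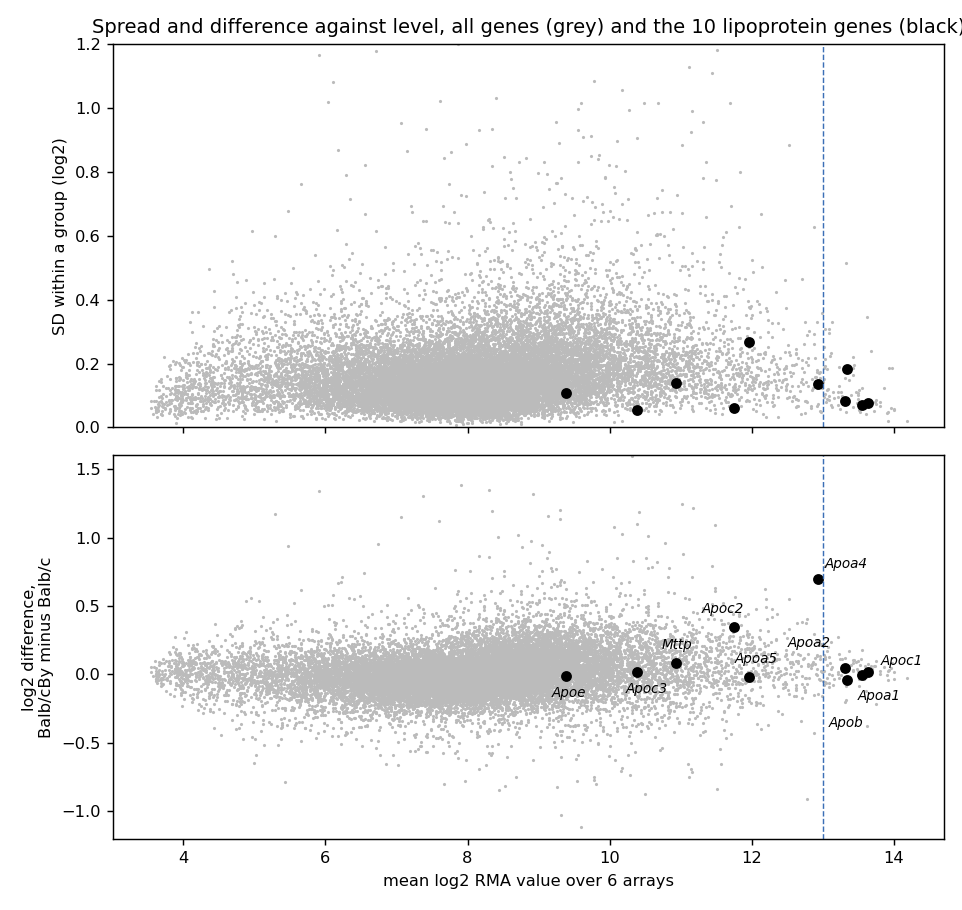
Mean log2 RMA value over 6 arrays (horizontal axis) against the SD within a group (upper panel) and the log2 difference, Balb/cBy minus Balb/c (lower panel), for 22180 genes (grey) and the 10 lipoprotein genes (black). The dashed line marks a level of 13, right of which the median SD was 0.096 and the median size of the difference 0.060. Below a level of 8 these were 0.13 and 0.070. Apoa4 (0.70) is just left of the line. Beyond the axes lie 9 genes in the upper panel and 6 in the lower.

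The tissue was read as liver by its markers. Alb, the albumin of hepatocytes, had means of 14.20 ± 0.023 for Balb/c and 14.17 ± 0.013 for Balb/cBy (SD, n = 3 each). Of 19 measured hepatocyte markers 13 had the higher mean in Balb/cBy, with a median difference of 0.03. Apoa4 is also a product of the small intestine. Of 10 enterocyte markers 1 had a higher mean in Balb/cBy, their median difference was -0.10, and their mean level ran from 7.97 to 8.07 in Balb/c and from 7.80 to 7.96 in Balb/cBy. Vil1, the brush-border villin, had means of 7.68 ± 0.16 for Balb/c and 7.70 ± 0.18 for Balb/cBy (SD, n = 3 each). Fabp2 had means of 10.66 ± 0.44 for Balb/c and 9.93 ± 0.090 for Balb/cBy (SD, n = 3 each), a difference of -0.73 (SE 0.20). It was the 1 of the 10 markers whose groups were apart, with Balb/cBy lower, beside 3.51% of all genes. The largest difference of an enterocyte marker towards Balb/cBy was 0.011. Apart from Fabp2, the enterocyte markers had group means between 6.12 and 8.35, beside array medians over all probe sets of 7.66 to 7.74. Signals this low leave little room to see a difference. Markers of stellate cells had a median difference of 0.21 (11 of 12 higher) and those of lymphocytes one of -0.15 (9 of 10 lower). Of the stellate markers 2 were apart with Balb/cBy higher, beside 4.32% of all genes. Of the lymphocyte markers 4 were apart with Balb/cBy lower, beside 3.51% of all genes. The group means of these 4 lay between 6.05 and 8.54, also around the array medians. Median differences for endothelium (0.06), cholangiocytes (-0.07), adipocytes (-0.02) and erythroid cells (0.03, 3 genes) were nearer to 0. None of these markers passed the test, and their part in the apolipoprotein values was not tested.

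Other genes of lipoprotein metabolism were read from lists grouped by role, also chosen with earlier results of these data known. Among 9 measured minor apolipoproteins and HDL-borne proteins, 0 passed, 8 had the higher mean in Balb/cBy, and 5 of the 9 did so without overlap of the groups, beside 4.32% of all genes. The median difference was 0.15, against -0.003 for all genes and 0.02 for the 11090 genes above the median level. Apon had means of 12.07 ± 0.076 for Balb/c and 12.39 ± 0.18 for Balb/cBy (SD, n = 3 each), a difference of 0.32 (SE 0.11). Saa4, a constitutive serum amyloid carried on HDL, differed by 0.27 (SE 0.10), and Clu, the extracellular chaperone clusterin, by 0.16 (SE 0.092). The arrays of all 3 genes were apart between the substrains, with an adjusted p of 0.999 in limma. The others apart, named after their values were seen, were Apoh by 0.13 (SE 0.088) and Apof by 0.06 (SE 0.086).

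Among 25 measured genes of VLDL assembly and secretion, 0 passed and 15 had the higher mean in Balb/cBy, with a median difference of 0.10. Surf4, a cargo receptor that carries lipoproteins out of the endoplasmic reticulum, read 12.09, 11.97 and 11.80 in Balb/c and 12.45, 12.46 and 12.44 in Balb/cBy. The groups were apart, by 0.50 (SE 0.10, adjusted p = 0.639 in limma). Arf1, a GTPase of Golgi vesicle coats, differed by 0.37 (SE 0.091), and Calr, the calcium-binding chaperone calreticulin, by 0.22 (SE 0.095), also without overlap. Both had an adjusted p of 0.999. In this list 3 of 25 genes were apart with Balb/cBy higher, beside 4.32% of all genes. The median ran from 0.01 without Balb/cBy replicate 2 to 0.15 without Balb/c replicate 1, and was 0.02 with array weights.

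Lipases and genes that remodel particles gave 0 of 12 past the test, 9 with the higher mean in Balb/cBy and a median difference of 0.10. Angptl8, a hepatic and adipose hormone of triglyceride metabolism, had the largest difference, with 10.49, 10.06 and 10.36 in Balb/c and 11.32, 11.73 and 10.76 in Balb/cBy. The Balb/cBy arrays were widely spread and all above Balb/c. Its difference was 0.96 (SE 0.23, adjusted p = 0.999 in limma), or 1.95-fold with an interval from 1.35 to 2.82. Gpihbp1, which anchors the lipase on capillaries, and Lcat, which esterifies cholesterol in HDL, each differed by 0.14 (SE 0.088 and 0.091), both without overlap. The intervals of Gpihbp1 (-0.06 to 0.34) and Lcat (-0.07 to 0.35) included 0. Of the 12 genes, 3 were apart with Balb/cBy higher, beside 4.32% of all genes. Lpl differed by 0.30 (SE 0.22), with overlapping groups. Leaving out single arrays gave list medians from 0.04 (Balb/c replicate 3 left out) to 0.17 (Balb/cBy replicate 1 left out).

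Receptor and uptake genes had differences from -0.12 to 0.14, the narrowest range of the 6 lists. Of 10 measured, 0 passed, 6 had the higher mean in Balb/cBy and no gene's groups were apart, with a median difference of 0.02. Single arrays moved that median from -0.05 without Balb/cBy replicate 3 to 0.12 without Balb/cBy replicate 1, and it was -0.04 with repeated quantile normalisation and 0.08 with array weights. The chaperone Lrpap1 differed by 0.10 (SE 0.11), the scavenger receptor Stab1 by -0.12 (SE 0.17) and the fatty acid translocase Cd36 by 0.14 (SE 0.22).

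Transcription factors that act on apolipoprotein genes had 0 of 18 past the test, 12 with the lower mean in Balb/cBy and a median difference of -0.09. Nr0b2, the corepressor SHP, read 11.28, 11.40 and 11.81 in Balb/c and 11.27, 11.003 and 10.89 in Balb/cBy, a difference of -0.44 (SE 0.16). Cebpa, a factor of hepatocyte identity, read 11.25, 11.30 and 11.48 in Balb/c and 10.83, 11.01 and 11.10 in Balb/cBy, a difference of -0.36 (SE 0.11). Creb3l3 (CREBH), a known activator of Apoa4 and Apoc2, had means of 11.78 ± 0.11 for Balb/c and 11.61 ± 0.085 for Balb/cBy (SD, n = 3 each), a difference of -0.18 (SE 0.099). These 3 genes were apart with Balb/cBy lower, beside 3.51% of all genes, and had an adjusted p of 0.999 in limma. Ppara differed by -0.38 (SE 0.20) and Hnf4a by 0.17 (SE 0.12), with overlapping groups. The list median was 0.01 without Balb/cBy replicate 1, the array of lowest weight, and -0.20 without Balb/c replicate 2.

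In a list of genes linked to CREBH and fat droplets, which includes Apoa4, Apoc2 and Apoa5, 0 of 16 passed, 8 were higher and 8 lower in mean, and the median difference was 0.01. Apoa4 and Apoc2, already described, were apart with Balb/cBy higher (2 of 16, beside 4.32% of all genes). Creb3l3 and Fgf21, a fasting hormone of the liver named here after its values were seen, were apart with Balb/cBy lower (2 of 16, beside 3.51%). Fgf21 differed by -0.21 (SE 0.099, adjusted p = 0.999 in limma). G0s2, an inhibitor of lipolysis, ranked by p directly after Apoa4 and Apoc2, ahead of Fgf21 and Creb3l3. It differed by -0.59 (SE 0.27), with overlapping groups. The median ran from -0.17 without Balb/cBy replicate 2 to 0.12 without Balb/cBy replicate 1, and was -0.05 with repeated quantile normalisation.

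**Figure D5:**
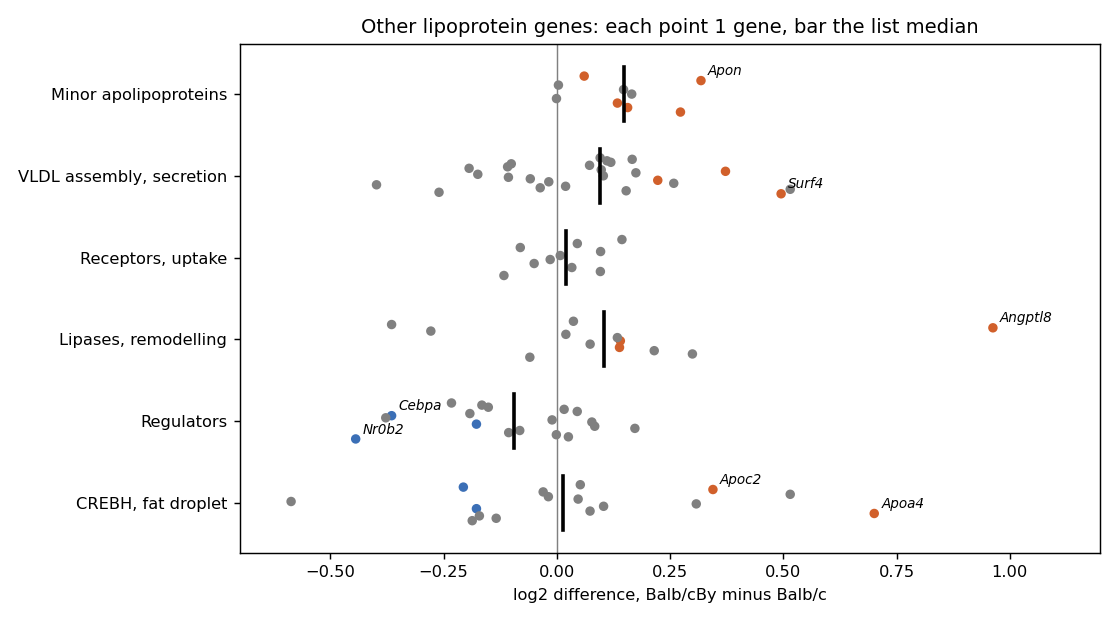
Log2 difference, Balb/cBy minus Balb/c (horizontal axis), of each measured gene in 6 lists of lipoprotein-related genes (rows, vertical scatter for legibility), with a black bar at the list median. Orange points are genes whose groups were apart with Balb/cBy higher, blue with Balb/cBy lower, grey overlapping, and selected genes are labelled. List medians run from -0.09 for the regulators to 0.15 for the minor apolipoproteins.

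The genes whose values followed Apoa4, the gene of the set with the widest range over the 6 arrays (0.933), were Clip4 (Pearson r = 0.987), 9130019O22Rik (0.985) and Adamts10 (0.980), out of 22179 compared. Their own ranges were narrow, at 0.164, 0.421 and 0.118. The groups of each were apart with Balb/cBy higher, as those of Apoa4 were, and r over the 6 arrays includes that gap. Mttp was most closely followed by Ilf2 (0.997), Drosha (0.996) and Mr1 (0.996), with overlapping groups for each. With so many genes and 6 arrays that share their normalisation, values of this size describe these arrays and are given with no test. Within the set, Apoc2 had an r of 0.918 with Apoa4 and Apoa2 one of 0.897 with Mttp. The groups of Apoa4 and of Apoc2 were both apart, and their r over all 6 arrays includes that gap. Within Balb/cBy, replicate 2 was the lowest for Apoa4 (13.11) and the highest for Apoc2 (11.97). Within Balb/c, replicate 2 was the lowest for both (12.50 and 11.50).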

How the data were processed

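Liver RNA of 3 Balb/c and 3 Balb/cBy mice was measured on one-colour Affymetrix arrays, and groups were taken from the strain in the labels. Per the submitters' processing notes, the authors summarised each probe set with RMA, and the deposited unit is log2, read from the values. The sources used here do not give the RMA version, annotation, filters or build. Of 41345 probe sets, GEO's platform annotation gave 1 symbol for 23521, several for 1814, and 16010 were unnamed here. Where a gene had several probe sets, the one with the highest mean was used, leaving 22180 genes with no filter on low values.

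Balb/cBy minus Balb/c was fitted over all genes with lmFit and eBayes of limma 3.58.1 (R 4.3.3), with no covariate and Benjamini-Hochberg adjustment. Intervals are 95% from the moderated fit. The number of arrays limits the precision. The fit was tested on simulated data. Named genes were the 10 of the set, up to 4 past the test or else the 3 with the smallest p of each pathway list, fixed targets (of which Creb3l3, Hnf4a and Lpl are given), of the cell type lists only fixed defining markers, and the 3 most alike to Apoa4 and Mttp. Genes flanking the 2 clusters, Apoh, Apof, Fgf21, Gpnmb and Mpeg1 were added with their values known. The genes and lists were chosen with earlier results of these data known. The alternatives were other normalisations, a filter, other probe set choices and variance models, array weights, the replicate number as a block, and leaving out arrays.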

Additional observations from a re-analysis of the deposited data

How the results depend on the processing

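Apoa4 and Apoc2 were higher in Balb/cBy under all 16 and 17 alternatives tried, from 0.62 to 0.79 and from 0.18 to 0.39, and passed under none (adjusted p from 0.103 and 0.421 upward in limma). Several alternatives could change only the p and not the difference, since each gene has 1 probe set of its own. These were the level filter, the mean of probe sets, each probe set alone, the other variance models and the replicate block. The direction under them is therefore no further evidence. The lowest value of Apoc2 came from the probe set shared with Apoc4, an alternative chosen after seeing the data. The count of genes passing was 12 with array weights, 0 to 3 without each array in turn, and 13 without both arrays of lowest weight, also chosen after seeing the data, and none of the 10 genes was among them. The other 8 genes had differences near 0, whose sign turned as follows, and the cause was not tested. With recentred arrays Apoa1 was 0.012 and Apoe 0.0093. With repeated quantile normalisation Apoc3 was -0.045 and Apoc1 -0.0004. With array weights Apoa1 was 0.0077, Apob 0.022, Apoa5 0.091, Apoc3 -0.0002 and Apoc1 -0.014. Without both arrays of lowest weight Apob was 0.10 and Apoa5 0.21. Without each array in turn the ranges were -0.041 to 0.036 for Apoa1, -0.0041 to 0.086 for Apoa2, -0.14 to 0.10 for Apob, -0.013 to 0.13 for Mttp, -0.16 to 0.19 for Apoa5, -0.0095 to 0.063 for Apoc3, -0.023 to 0.068 for Apoc1 and -0.085 to 0.031 for Apoe. The median of the VLDL list was 0.015 with array weights and 0.014 to 0.15 without each array, and that of the CREBH list -0.17 to 0.12. With the replicate number as a block 0 genes passed and Apoa4 had an adjusted p of 0.779. The numbers did not pair the arrays: the correlations of deviations from the group means were -0.323, -0.201 and -0.228, and 0 of 6 arrays correlated best with its own number. Values at the top of the scale, and 3 arrays a group, limit what can be seen.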
